A study of Bos taurus with 34 samples.

Results

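The upper uterine horn, the part of the bovine horn next to the oviduct, was compared with the uterine body, the unpaired part next to the cervix. The 9 libraries labelled upper horn and the 5 labelled body were taken from the column names, which makes 14 of the 34 RNA-seq libraries of the series. They came from 5 nulliparous Holstein heifers, numbered 10872, 10882, 11033, 11070 and 11110, in which the oestrous cycle was synchronised with a progesterone insert left for 5 days. Tissue was collected at slaughter on day 2 after ovulation. The labels give no age and no other treatment, and all animals were treated alike. The upper horn was sampled on the side of ovulation (ipsilateral, 4 libraries) and on the opposite side (contralateral, 5 libraries). The ipsilateral upper horn of heifer 11110 was not analysed here. The body was sampled once per heifer. For each transcript the upper horn, with its sides averaged, was set against the body with heifer as a term in the fit. The 10 mid-horn libraries of the same animals were used to place levels between the ends.

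HOX genes lie in the HOXA, HOXB, HOXC and HOXD clusters and code for transcription factors that specify position along the body axis. Genes at the 5' end of a cluster, those of the highest paralog numbers, act furthest towards the tail. In mice, Hoxa9, Hoxa10, Hoxa11 and Hoxa13 are expressed in that order along the Müllerian duct, from the future oviduct to the future cervix and upper vagina, and adult uterus keeps Hoxa10 and Hoxa11 expression. The upper horn receives the embryo first, after it leaves the oviduct, and the body is continuous with the cervix.

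Total counts ran from 11619486 to 30412782 in the upper horn and from 15182060 to 26957480 in the body. Levels are given as CPM, read counts relative to the library size scaled by the TMM method, and are comparable between libraries for 1 transcript but not between genes, because the counts carry no transcript length and reads shared by transcripts of a gene may be lost. Transcripts of stroma and epithelium were present in all 14 libraries. The stromal collagen transcript COL1A2 stood at 12380 to 37090 CPM in the upper horn and 14890 to 29320 CPM in the body. The epithelial EPCAM stood at 341.8 to 1309 CPM in the upper horn and 329.1 to 874.6 CPM in the body. EPCAM was not particular to the uterus, at 1263 to 2677 CPM in the ampulla. MSX1 stood at 354.7 to 1162 CPM in the upper horn and 386.4 to 666.7 CPM in the body, against at most 28.76 CPM in the ampulla. The oviduct keratin KRT5 stood at no more than 3.79 CPM in the upper horn and 1.36 CPM in the body, against at least 761.3 CPM in the ampulla. The features of the smooth muscle myosin MYH11 and of the leukocyte marker PTPRC were at or near 0 in the upper horn, the body and the ampulla and could not serve. Some libraries stood apart. Transcripts of 18S ribosomal RNA took 19.6% of counts in heifer 10882's contralateral upper horn and 23.5% in heifer 11033's body, against 0.674% to 6.48% in the other 12 libraries. Some smooth muscle transcripts, DES and ACTG2 among them, were high in 3 upper horn libraries, the contralateral one of heifer 10872 and the ipsilateral ones of heifers 10882 and 11033. In bulk tissue, fewer cells of a type and less RNA per cell cannot be told apart.

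The transcripts that separated the upper horn from the body were few, and the clearest belonged to the 5' ends of HOX clusters. HOXD13, HOXA13 and the long non-coding RNA LOC101907241 fell in the upper horn relative to the body, and PENK, the precursor of the enkephalin opioid peptides, rose. Of 17241 transcripts tested with edgeR's quasi-likelihood test over all 34 libraries, with heifer as a term, these 4 had a Benjamini-Hochberg adjusted p under 0.05, which is 0.0232% of those tested. Without adjustment, 706 transcripts had p under 0.05 and were higher in the upper horn, 4.09% of those tested, and 1221 were lower, 7.08%. The median log2 fold change over all tested transcripts was -0.06, and the median SE was 0.43. Without the 2 libraries rich in 18S RNA, 379 transcripts in place of 1927 had an unadjusted p under 0.05, and HOXD13, HOXA13 and LOC101907241 were called. HOXD13 alone was called when the 3 libraries high in smooth muscle transcripts were left out.

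**Figure D1:**
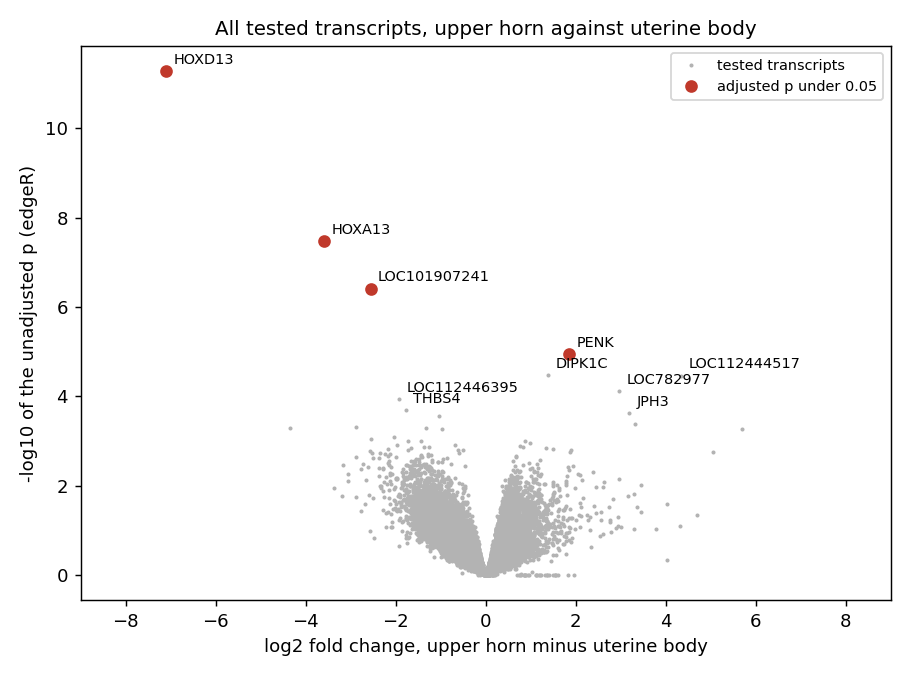
Each point is 1 of the 17241 transcripts tested. The x axis is the log2 fold change of the upper horn minus the uterine body and the y axis is the -log10 of the unadjusted p of edgeR's test; the 4 transcripts with an adjusted p under 0.05 are in red, 3 to the left (lower in the upper horn) and PENK to the right.

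HOXD13, the most 5' gene of its cluster, was nearly silent in the upper horn. It had 3 counts in the ipsilateral library of heifer 10872, 1 in the ipsilateral library of heifer 11070, 1 in the contralateral library of heifer 10882 and 0 in the other 6, a total of 5 counts. The bodies had 192, 134, 12, 94 and 48 counts in heifers 10872, 10882, 11033, 11070 and 11110, a total of 480. In CPM, the highest upper horn library stood at 0.0878, and the bodies stood at 7.44, 4.25, 0.666, 3.63 and 2.33 in the same order. The groups did not overlap, although the body of heifer 11033, the library rich in 18S RNA, was the lowest body by far. The log2 fold change was -7.10 ± 0.62 (SE), with an adjusted p of 9.13e-08 by edgeR's test, and the direction held in 5 of 5 heifers. Because 5 counts stand behind the upper horn, the size of the fold is imprecise, with a 95% interval on the log2 scale from -8.36 to -5.84.

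HOXA13 was expressed at low levels in the upper horn and at several times that level in the body. The ipsilateral upper horns stood at 3.51, 1.09, 0.617 and 0.309 CPM in heifers 10872, 10882, 11033 and 11070. The contralateral upper horns stood at 1.82, 3.18, 0.676, 0.0736 and 0.556 CPM in heifers 10872, 10882, 11033, 11070 and 11110. The bodies stood at 11.2, 21.4, 9.94, 8.61 and 8.51 CPM in the same 5 heifers. The lowest body lay above the highest upper horn, and the body of heifer 10882 stood apart from the other bodies. The mean was 1.24 ± 1.09 CPM in the upper horn and 11.9 ± 5.43 CPM in the body (SD, n = 5 heifers each). The log2 fold change was -3.59 ± 0.49 (SE), with an adjusted p of 2.93e-04 by edgeR's quasi-likelihood test. Heifer by heifer, the upper horn had between 0.0222 times the body's level, in heifer 11070, and 0.239 times, in heifer 10872. With the 3 libraries high in smooth muscle transcripts left out, the log2 fold change was -3.37, with an adjusted p of 0.0802 by edgeR's test.

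LOC101907241, annotated in RefSeq assembly ARS-UCD2.0 as a long non-coding RNA, lies there between the coding genes HOXC11 and HOXC12 and overlaps no other listed gene. Its upper horn level ran from 3.02 to 13.1 CPM, with a median of 8.98. The bodies stood at 42.6, 90.1, 49.0, 30.7 and 48.8 CPM in heifers 10872, 10882, 11033, 11070 and 11110, all above every upper horn library. The log2 fold change was -2.56 ± 0.39 (SE), a 5.88-fold lower level, with an adjusted p of 0.00223 by edgeR's test and the same direction in 5 of 5 heifers. It was -2.38 when the 3 libraries high in smooth muscle transcripts were left out, with an adjusted p of 0.131, and on the ipsilateral side alone -2.32, with an adjusted p of 0.182, both by edgeR's test. A further lncRNA, LOC112446395, lies between HOXA13 and HOXA11 in the same assembly, where its span overlaps that of LOC104972110, so that reads of this pair may not be separable. It ran from 0.468 to 3.67 CPM in the upper horn and from 4.16 to 6.83 CPM in the body, without overlap. Its log2 fold change of -1.92 ± 0.44 missed the threshold, with an adjusted p of 0.252 by edgeR's test.

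**Figure D2:**
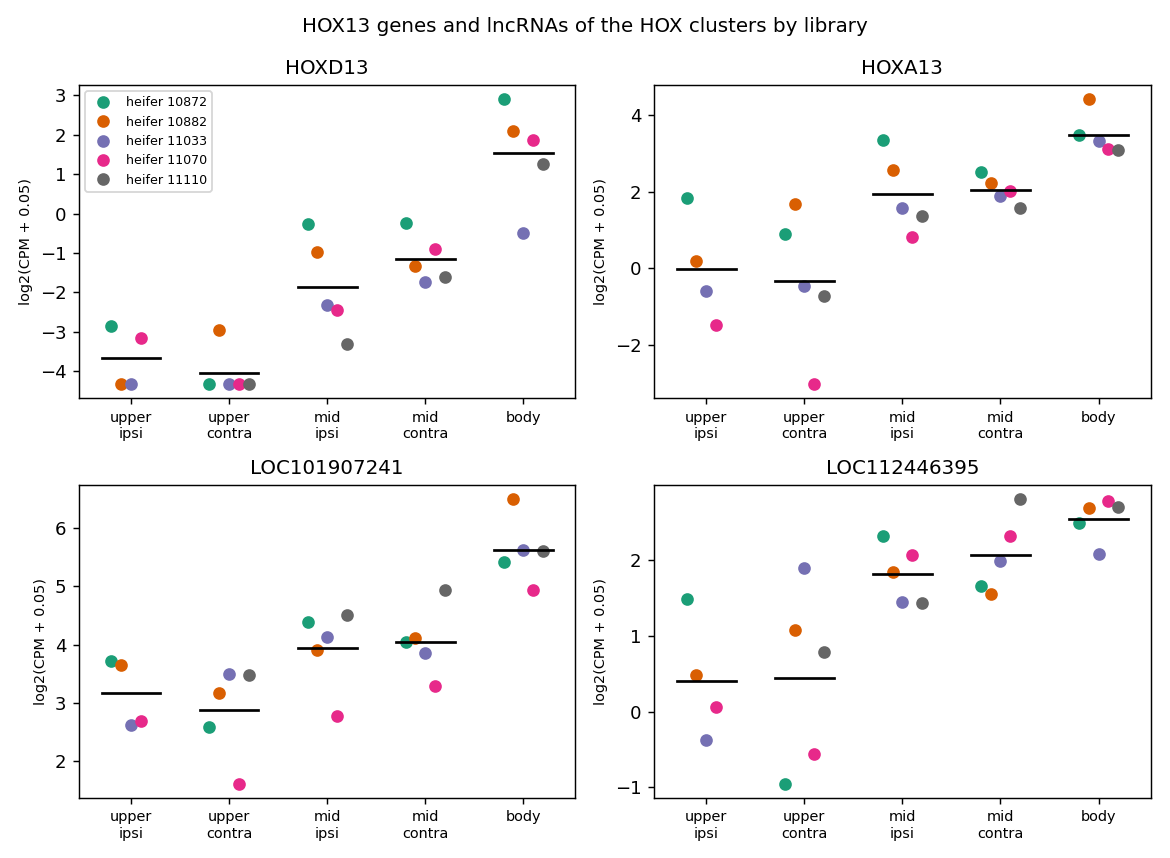
Log2 of CPM plus 0.05 (y axis) for HOXD13, HOXA13, LOC101907241 and LOC112446395 in each library of the upper horn, mid horn and body (x axis, in tract order and split by side of ovulation). Points are libraries coloured by heifer and bars are means of the plotted log2 values; every body point lies above every upper horn point in all 4 panels, and the mid horn lies between on average.

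The mid horn stood between the ends for all of these transcripts. HOXD13 averaged 0.0229 ± 0.0214 CPM in the upper horn, 0.373 ± 0.250 CPM in the mid horn and 3.66 ± 2.52 CPM in the body (SD, n = 5 heifers). Both steps passed the test: the log2 fold change was -3.89 ± 0.61 for the upper against the mid horn (adjusted p = 0.00643, edgeR) and -3.21 ± 0.44 for the mid horn against the body (adjusted p = 0.00145, edgeR). HOXA13 averaged 1.24 CPM in the upper horn, 4.44 CPM in the mid horn and 11.9 CPM in the body. Its step from mid horn to body passed, at -1.52 (adjusted p = 0.0483, edgeR), whereas that from upper to mid horn, -2.07, did not (adjusted p = 0.159, edgeR). LOC101907241 averaged 8.93 CPM in the upper horn, 17.1 CPM in the mid horn and 52.2 CPM in the body, with a mid horn minus body value of -1.65 (adjusted p = 0.0408, edgeR) and an upper minus mid horn value of -0.90 (adjusted p = 0.787, edgeR). The background differed between these steps, with 0.0174% of transcripts called for the upper against the mid horn and 4.45% for the mid horn against the body. In the ampulla, HOXD13 stood at no more than 0.0615 CPM and HOXA13 at no more than 0.393 CPM. The ampulla libraries differed in make-up, with the stromal transcripts COL1A2 at 27.1 to 84.2 CPM and VIM at 2.59 to 9.44 CPM. In the upper horn these stood at 12380 and 1817 CPM or more. The ampulla levels therefore cannot be placed on the same axis as the uterine sites.

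No other HOX gene was called, and none of their 95% intervals reached below -1.97. Of 39 HOX genes in the list, 35 had a feature and 29 were tested. HOXA13 and HOXD13, the only tested genes of paralog number 13, were called. None of the 9 tested genes of paralog numbers 9 to 12 was called, and their median log2 fold change was -0.06. None of the 18 tested genes of paralog numbers 1 to 8 was called, and their median was -0.22. The median over the whole list was -0.15, against -0.06 over all tested transcripts. A negative value was found in 20 of 29 HOX genes, and the median over all tested transcripts was negative too. Without adjustment, 7 HOX genes had p under 0.05, all lower in the upper horn, against 7.08% lower over all tested transcripts. Besides the called pair these were HOXC11 (-1.19 ± 0.38), HOXA7 (-1.07 ± 0.39), HOXB8 (-0.97 ± 0.41), HOXA6 (-0.77 ± 0.35) and HOXB6 (-0.50 ± 0.24). Without the 2 libraries rich in 18S RNA, 4 of the 29 had p under 0.05, all lower in the upper horn. DESeq2's Wald test on all features called 3 HOX genes, HOXC11 being the third. On the transcripts kept by edgeR's filter, DESeq2 called 5 lower, namely HOXD13, HOXA13, LOC101907241, LOC112446395 and ITGA7, and HOXC11 was not called.

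HOXA and HOXD genes of lower paralog number that are known from the uterus were not called. HOXA10, needed for uterine receptivity in mice, ran from 68.3 to 219.5 CPM in the upper horn, with a median of 129, and stood at 112, 95.9, 53.5, 126 and 106 CPM in the bodies of heifers 10872, 10882, 11033, 11070 and 11110. The groups overlapped, with a log2 fold change of 0.43 ± 0.23 (adjusted p = 0.470, edgeR). HOXA11 averaged 200 ± 42.3 CPM in the upper horn and 208 ± 95.4 CPM in the body, a log2 fold change of -0.06 whose 95% interval ran from -0.67 to 0.55. HOXA9 averaged 182 ± 102 CPM in the upper horn and 138 ± 54.8 CPM in the body, with a log2 fold change of 0.26 ± 0.33. In HOXD the values were 0.33 ± 0.25 for HOXD9, 0.24 ± 0.23 for HOXD10 and -0.35 ± 0.23 for HOXD11. Both values changed sign in some fits, HOXA9 on the ipsilateral side alone (-0.06) and HOXA11 without heifer 10872 (0.19). HOXD12, next to HOXD13, was too low to be tested: it had 2 counts over the upper horn libraries, both in the contralateral library of heifer 10882, and 19 over the bodies, of which 5, 5, 4, 4 and 1 came from heifers 10872, 10882, 11033, 11070 and 11110. HOXC12 and HOXC13 were also untested, with 1 count each over the upper horn and 8 and 4 counts over the bodies.

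**Figure D3:**
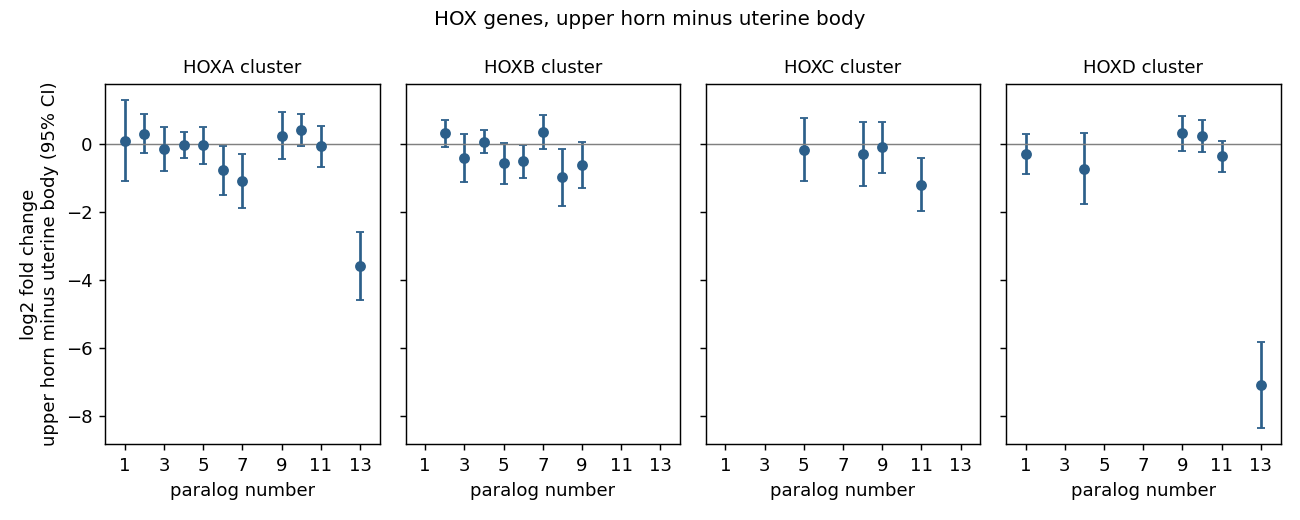
Log2 fold change of the upper horn minus the uterine body (y axis, bars are 95% confidence intervals) for the 29 tested HOX genes against paralog number (x axis), 1 panel per cluster. HOXA13 and HOXD13 lie at -3.59 and -7.10, and the other genes lie between -1.19 and 0.43.

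PENK was the transcript called higher in the upper horn. The ipsilateral upper horns stood at 11.8, 33.2, 64.1 and 266 CPM in heifers 10872, 10882, 11033 and 11070, and the contralateral ones at 7.53, 26.2, 75.8, 249 and 40.6 CPM in heifers 10872, 10882, 11033, 11070 and 11110. The bodies stood at 4.46, 9.74, 17.7, 26.9 and 18.8 CPM in the same 5 heifers. The groups overlapped because the level also differed between heifers, but within each heifer every upper horn library lay above the body. The ratio of upper horn to body was 2.17, 3.05, 3.95, 9.59 and 2.16 in heifers 10872, 10882, 11033, 11070 and 11110. The log2 fold change was 1.86 ± 0.36 (SE), a 3.63-fold higher level, with an adjusted p of 0.0489 by edgeR's test. The call is marginal: leaving out any 1 heifer ended it, with values from 1.54 to 2.05 and adjusted p from 0.138 to 0.492 by edgeR's test. The mid horn averaged 46.8 CPM, between 81.5 CPM in the upper horn and 15.5 CPM in the body, and neither step passed the test, at 0.89 for upper minus mid horn (adjusted p = 0.655, edgeR) and 0.97 for mid horn minus body (adjusted p = 0.0706, edgeR).

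**Figure D4:**
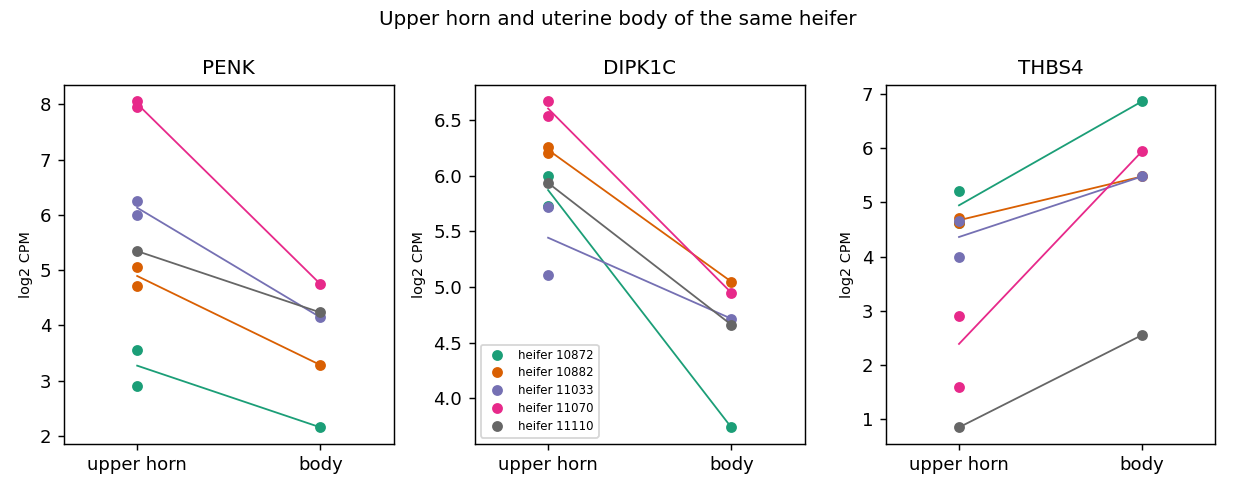
Log2 CPM (y axis) of PENK, DIPK1C and THBS4 in the upper horn and the body (x axis), coloured by heifer. Points are libraries and each line joins the mean CPM of a heifer's upper horn libraries to her body; all 5 lines go down from the upper horn to the body for PENK and DIPK1C, and up for THBS4.

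Some transcripts did not overlap between the sites at the level of libraries. This held for the 9 upper horn and the 5 body libraries in 21 of the 17241 tested transcripts, 0.122%. Of these, 7 were higher and 14 lower in the upper horn, the called HOXD13, HOXA13 and LOC101907241 among them. How many would separate by chance was not tested, so the count alone shows no difference beyond the calls. Some margins were narrow: AXIN2 reached 1.252 CPM in the upper horn and began at 1.264 CPM in the body. DIPK1C, a gene of the FAM69 family, ran from 34.4 to 102 CPM in the upper horn and from 13.3 to 33.1 CPM in the body. Its log2 fold change was 1.39 ± 0.29, higher in 5 of 5 heifers, with an adjusted p of 0.0994 by edgeR's test. PPP1R1B, a phosphatase inhibitor, ran from 94.1 to 133 CPM in the upper horn and from 43.9 to 84.4 CPM in the body, with a log2 fold change of 0.57 ± 0.19. In the other direction, CLEC1A, a lectin-like receptor of endothelial cells, ran from 31.7 to 58.9 CPM in the upper horn and from 60.5 to 87.7 CPM in the body, with a log2 fold change of -0.58 ± 0.17. EFNA1, an ephrin, ran from 14.2 to 25.0 CPM in the upper horn and from 27.5 to 33.1 CPM in the body, with a log2 fold change of -0.42 ± 0.18. ACE, the angiotensin-converting enzyme, ran from 0.966 to 27.9 CPM in the upper horn and from 29.9 to 38.3 CPM in the body, with a log2 fold change of -0.89 ± 0.38. The adjusted p of PPP1R1B, CLEC1A, EFNA1 and ACE was 0.428 by edgeR's test.

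Other genes of low p had mixed functions and were not called by edgeR for the upper horn against the body over all 34 libraries. DESeq2's Wald test on the transcripts kept by edgeR's filter called DIPK1C, JPH3, KRT75 and ITGA7, and on all features it also called THBS4 (adjusted p = 0.0105, DESeq2). THBS4, a matrix thrombospondin, stood at 116, 44.6, 44.6, 61.6 and 5.88 CPM in the bodies of heifers 10872, 10882, 11033, 11070 and 11110 and ran from 1.81 to 36.9 CPM in the upper horn, lower than the body in 5 of 5 heifers. Its log2 fold change was -1.78 ± 0.42 (adjusted p = 0.391, edgeR). The Notch ligand JAG1 averaged 169 ± 34.9 CPM in the upper horn and 237 ± 57.2 CPM in the body, lower in 5 of 5 heifers, with -0.50 ± 0.15 (adjusted p = 0.428, edgeR). When the 24 uterine libraries were fitted without the ampulla, THBS4 and DIPK1C were among the 7 transcripts called, with adjusted p of 0.00456 and 0.0174 by edgeR's test. GPC3, a heparan sulphate proteoglycan of the cell surface, averaged 21.3 ± 10.3 CPM in the upper horn and 7.96 ± 4.44 CPM in the body, higher in 5 of 5 heifers, with 1.51 ± 0.43 (adjusted p = 0.428, edgeR). Of similar p were MYOF, a membrane repair protein (-1.37 ± 0.39), COL25A1, a membrane collagen (-1.33 ± 0.34), TNFRSF10D (-0.62 ± 0.18) and TNKS1BP1, a tankyrase-binding protein (-1.65 ± 0.47), all negative, and POLR1D, a subunit of RNA polymerases I and III (0.76 ± 0.22), each at an adjusted p of 0.428 by edgeR's test. For the mid horn minus the body, MYOF (-1.43), TNFRSF10D (-0.75), TNKS1BP1 (-2.16) and POLR1D (0.74) were called, with adjusted p from 0.0408 to 0.0445 by edgeR's test. Their upper minus mid horn values were 0.05, 0.13, 0.51 and 0.02 in that order, with no call. COL25A1 was not called for the mid horn minus the body. By mean CPM, TNKS1BP1 in the upper horn stood at 1.03 times the body's level in heifer 10872 and 1.255 times in heifer 11110. ITGA7, KCNAB1, TRAF5 and NXPH1 stood at 1.75 CPM or less in every body and 4.08 CPM or less in every upper horn library. Against the mid horn, at 6.26 ± 4.62 CPM, GPC3 was called higher in the upper horn, at 1.87 ± 0.34 (adjusted p = 0.0348, edgeR). CHODL, a membrane lectin, was higher in 5 of 5 heifers with 0.88 ± 0.24, and the calcium-storage protein CASQ2 in 5 of 5 with 1.89 ± 0.55, both at an adjusted p of 0.428 by edgeR's test.

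The smooth muscle list moved with 3 libraries. Of its 14 tested members 0 were called by edgeR's quasi-likelihood test, 6 had an unadjusted p under 0.05, all higher in the upper horn, and DESeq2's Wald test on all features called 2, DES and CASQ2. On the transcripts kept by edgeR's filter, DES was not called (adjusted p = 0.162, DESeq2). The list median was 0.75, against -0.06 over all tested transcripts, of which 4.09% were higher at an unadjusted p under 0.05. Without the 3 libraries the median was -0.13, with 1 member higher and 1 lower at an unadjusted p under 0.05. DES, the muscle intermediate filament desmin, stood at 698.5, 1779 and 2422 CPM in those libraries, against at most 202 CPM in the other 6 upper horn libraries and at most 181 CPM in the body. ACTG2, the enteric smooth muscle actin, stood at 315, 516 and 1068 CPM there, against at most 49.2 CPM in the other upper horn libraries and at most 28.7 CPM in the body. DES had a log2 fold change of 1.86 ± 0.60 with all libraries and -0.01 without the 3, and ACTG2 2.60 ± 0.94 with all and -0.33 without. Summed over 20 markers with a feature, smooth muscle transcripts stood at 2686, 5644 and 6343 CPM in the 3 libraries, ran from 839 to 2611 CPM in the other upper horn libraries, and ran from 1248 to 3032 CPM in the body. By this sum the contralateral library of heifer 10872 did not stand apart. CASQ2 did not follow the 3 libraries: it stood at 1.96, 1.17 and 2.57 CPM there, and was highest, at 5.71 CPM, in the contralateral upper horn of heifer 11070.

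Several genes outside that list were high in the same 3 libraries. In 117 of the 17241 tested transcripts these 3 libraries were the highest of the 14. In 18 each of them was more than 2-fold above every other library. The 18 included the smooth muscle transcripts DES, ACTG2 and KCNMB1. The 3 libraries were singled out in the same data by such transcripts, so the counts partly reflect that choice. How many transcripts any other 3 libraries would top was not tested. SFRP2, a secreted modulator of WNT signals, stood at 280 CPM in the contralateral library of heifer 10872, 478 CPM in the ipsilateral library of heifer 10882 and 687 CPM in that of heifer 11033. Its other upper horn libraries ran from 70.7 to 96.8 CPM and its bodies from 25.1 to 60.0 CPM, so that the groups did not overlap with or without the 3. The log2 fold change of SFRP2 was 1.94 ± 0.61 (adjusted p = 0.428, edgeR), and 0.71 without them. The WNT agonist RSPO3 had 1.88 ± 0.54 with all libraries and 0.69 without the 3, and its contralateral upper horn of heifer 11033 was also high, at 42.1 CPM. JPH3, a junctophilin that ties the cell membrane to calcium stores, had 3.19 ± 0.77 with all and 1.46 without. KRT75, a keratin, had 5.71 ± 1.47 with all and 2.21 without, and CCL11, an eosinophil chemokine, 3.36 ± 1.46 with all and -1.20 without. LOC112444517, a lncRNA between CTBP2 and TEX36 in ARS-UCD2.0, stood at 8.04, 9.52 and 7.92 CPM in the 3 libraries, 0 to 1.30 CPM in the other upper horn libraries and 0.0386 to 0.349 CPM in the body. It was called higher in the upper than the mid horn, at 4.53 ± 0.69 (adjusted p = 0.00431, edgeR), and its value against the body was 4.35 ± 0.90 (adjusted p = 0.0994, edgeR). Against the body it passed in sums per heifer (adjusted p = 0.0233, edgeR) and with DESeq2 on the filtered transcripts (adjusted p = 0.00252, DESeq2). The part of smooth muscle tissue in these values was not tested.

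**Figure D5:**
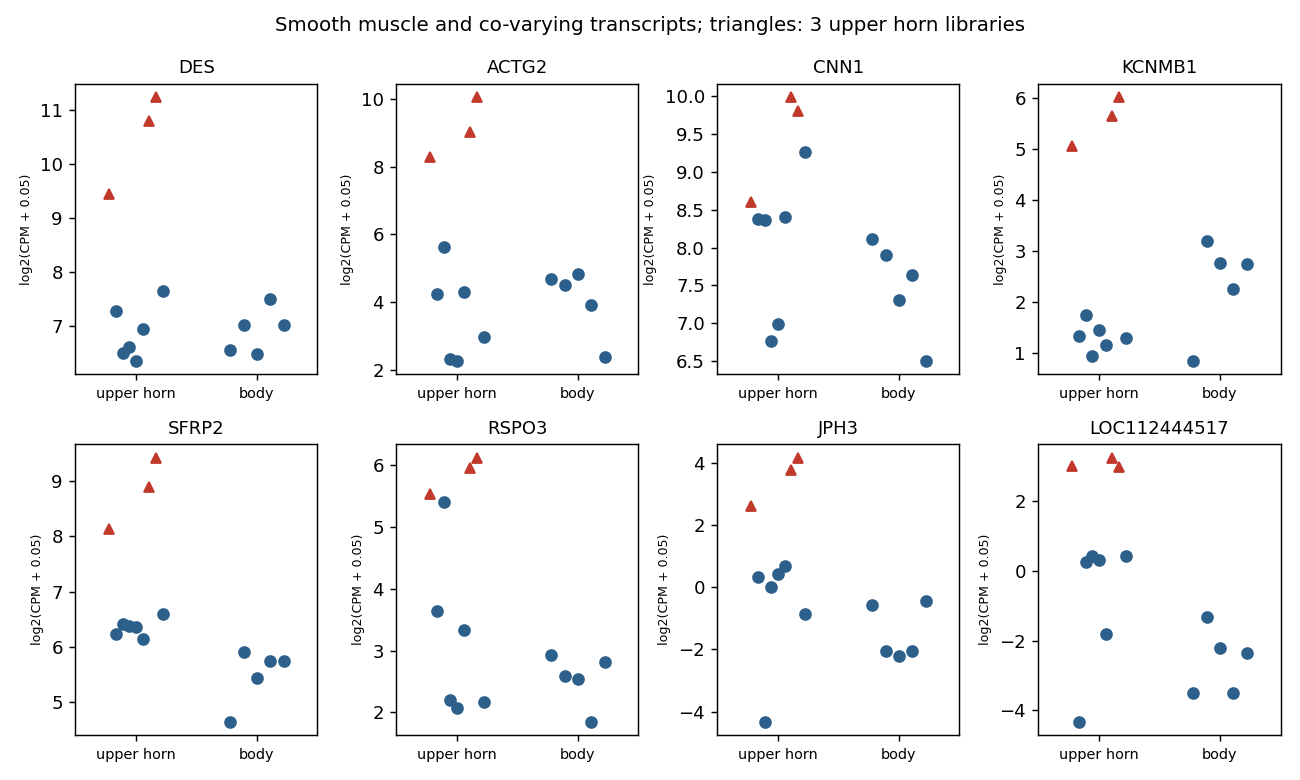
Log2 of CPM plus 0.05 (y axis) in the 9 upper horn and 5 body libraries (x axis) for 4 smooth muscle transcripts and for SFRP2, RSPO3, JPH3 and LOC112444517. Red triangles are the 3 libraries high in smooth muscle transcripts, from heifers 10872, 10882 and 11033; they are the highest points in 7 panels, and in that of CNN1 1 other library lies above 1 of them.

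Markers of vessel walls, nerve sheath and endothelium had mostly negative values, without a call. Of 13 tested markers of pericytes and nerve sheath, 0 were called by edgeR or DESeq2, 5 had an unadjusted p under 0.05, all lower in the upper horn, and 11 of 13 values were negative, with a median of -0.54. They were CDH19 of Schwann cells (-0.77 ± 0.27), the receptor NOTCH3 (-0.71 ± 0.28), RGS5 of pericytes (-0.68 ± 0.31), the neurotrophin receptor NGFR (-0.67 ± 0.33) and the adhesion molecule MCAM (-0.64 ± 0.25). NOTCH3 was not particular to mural cells here, since it stood at 37.0 to 312 CPM in the ampulla, where RGS5 stood at no more than 1.05 CPM. Summed over 14 markers, the level ran from 854.5 to 1712 CPM in the upper horn and from 1656 to 2155 CPM in the body. Without the 3 libraries high in smooth muscle transcripts 0 members had p under 0.05, with a median of -0.41, and without the 2 libraries rich in 18S RNA 4 members did, all lower. Of 13 tested endothelial markers 0 were called by edgeR or DESeq2, and 3 had an unadjusted p under 0.05, all lower in the upper horn: the orphan receptor TIE1 (-0.52 ± 0.22), the angiopoietin receptor TEK (-0.52 ± 0.22) and the VEGF receptor FLT1 (-0.46 ± 0.19). TEK stood at 167, 147, 151, 161 and 170 CPM in the bodies of heifers 10872, 10882, 11033, 11070 and 11110 and ran from 72.4 to 152 CPM in the upper horn, with a small overlap. The endothelial median was -0.18, with 11 values negative and 2 positive. Summed over 17 endothelial markers, the upper horn (1279 to 2367 CPM) and the body (1617 to 2170 CPM) overlapped. Endothelial CLDN5 ran from 31.6 to 200.8 CPM in the upper horn and from 60.6 to 84.8 CPM in the body. Over all tested transcripts, 7.08% were lower at an unadjusted p under 0.05.

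Epithelial, glandular, stromal and leukocyte lists held no call. General epithelium had a median of 0.35 over 14 tested members, with 0 at an unadjusted p under 0.05, and a median of 0.16 without the 2 libraries rich in 18S RNA. Ciliated epithelium had a median of 0.37 over 23 members, with 1 higher at p under 0.05, and endometrial glands 0.38 over 9, with 1 higher. The stroma list had a median of 0.04 over 17 members, with 1 lower at p under 0.05. The leukocyte list had 0.21 over 16, with 0. DESeq2 called 0 members of these 5 lists. The shares over all tested transcripts were 4.09% higher and 7.08% lower, with a median of -0.06. Without the 3 libraries high in smooth muscle transcripts, the median was 0.05 for general epithelium, 0.33 for ciliated epithelium and 0.15 for glands. It was -0.01 for stroma and 0.12 for leukocytes there. The gland transcription factor FOXA2 averaged 68.7 ± 19.1 CPM in the upper horn and 50.6 ± 15.1 CPM in the body, a log2 fold change of 0.49 ± 0.30. GRP, a gastrin-releasing peptide made by glands, averaged 4709 ± 2774 CPM in the upper horn and 3847 ± 4821 CPM in the body, where heifer 10872 alone stood at 12400 CPM. Its log2 fold change was 0.66 ± 0.60 (adjusted p = 0.647, edgeR).

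Of 17 tested steroid and hormone receptors, 0 were called by edgeR or DESeq2. At an unadjusted p under 0.05, 1 was higher and 1 lower, with a list median of 0.06. The shares over all tested transcripts were 4.09% higher and 7.08% lower, with a median of -0.06. The progesterone receptor PGR averaged 21.6 ± 8.04 CPM in the upper horn and 20.6 ± 6.98 CPM in the body, with a log2 fold change of 0.02 and a 95% interval from -0.56 to 0.60; with DESeq2 size factors it was -0.06. The oxytocin receptor OXTR averaged 91.1 ± 55.6 CPM in the upper horn and 89.2 ± 109 CPM in the body, with 0.37 ± 0.45. The feature of the oestrogen receptor ESR1 stood at no more than 0.555 CPM in any of the 14 libraries and was not tested. Of 9 tested genes of prostaglandin synthesis and transport, 0 were called by edgeR or DESeq2 and 0 had an unadjusted p under 0.05, with a median of 0.31.

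Secreted signals, which include the candidate embryokines (maternal signals that act on the embryo), had PENK as their single call by edgeR. Of 77 tested members of the list of other growth factors and peptide signals, 1 was called higher by edgeR. DESeq2 on all features called 2, PENK and JAG1, of which PENK alone was called on the transcripts kept by edgeR's filter. At an unadjusted p under 0.05, 2 were higher and 5 lower, and the list median was 0.01. The values lower in the upper horn included the neuropeptides NTS (-1.55 ± 0.49) and UCN2 (-1.24 ± 0.45). The upper horn to body ratio of NTS was 1.02, 0.422, 0.952, 0.294 and 0.0578 in heifers 10872, 10882, 11033, 11070 and 11110. Heifer 11110, the lowest, had 1 upper horn library. The NTS value ran from -2.01 to -0.83 when each heifer was left out. Over all tested transcripts, 4.09% were higher and 7.08% lower at an unadjusted p under 0.05. Of 24 tested candidate embryokines 0 were called by edgeR or DESeq2 and 1 had an unadjusted p under 0.05, which is near that share. This was FGF10, a stromal growth factor for epithelium, at 27.7 ± 12.2 CPM in the upper horn and 17.0 ± 4.92 CPM in the body. It was higher in 5 of 5 heifers, with 0.67 ± 0.33 (adjusted p = 0.444, edgeR). Of 46 tested WNT pathway members 0 were called by edgeR and 1, RSPO3, by DESeq2 on all features (adjusted p = 0.045, DESeq2). RSPO3 was not called on the transcripts kept by edgeR's filter (adjusted p = 0.162, DESeq2). At an unadjusted p under 0.05, 5 were higher in the upper horn, namely RSPO3, SFRP2, RSPO1 (1.03 ± 0.44), FZD2 (0.49 ± 0.23) and ROR2 (0.48 ± 0.22), and 2 were lower, namely the antagonist DKK2 (-1.57 ± 0.48) and the ligand WNT10B (-0.84 ± 0.33). DKK2 ran from 0.290 to 4.19 CPM in the upper horn and stood at 0.620, 5.08, 5.55, 5.29 and 4.57 CPM in the bodies of heifers 10872, 10882, 11033, 11070 and 11110, so that heifer 10872 went against the other 4. Without the 2 libraries rich in 18S RNA, 2 WNT members were higher and 3 lower at an unadjusted p under 0.05.

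Regulators of BMP and retinoic acid signals gave no call by edgeR. Of 47 tested members of the BMP, activin and TGF-beta list, 1 higher and 2 lower in the upper horn had an unadjusted p under 0.05. Over all tested transcripts, 4.09% were higher and 7.08% lower at that threshold. DESeq2 on all features called 1, SOSTDC1, which was not called on the transcripts kept by edgeR's filter. SOSTDC1, an antagonist of BMP and WNT ligands, averaged 4.08 ± 1.31 CPM in the upper horn and 8.13 ± 2.81 CPM in the body, with a log2 fold change of -0.94 ± 0.29. ID4, an inhibitor of helix-loop-helix factors, averaged 166 ± 39.2 CPM in the upper horn and 115 ± 28.0 CPM in the body, with 0.60 ± 0.20. Of 12 tested retinoic acid genes, 2 higher and 1 lower had an unadjusted p under 0.05, and DESeq2 called 0. The retinal dehydrogenases went opposite ways in sign: ALDH1A1 had 0.51 ± 0.23, positive in 5 of 5 heifers, and ALDH1A2 had -1.17 ± 0.50, negative in 3 of 5. The retinoic acid-binding protein CRABP1 had 1.15 ± 0.47.

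Of 23 tested members of the antioxidant list 0 were called by edgeR or DESeq2, and 4 had an unadjusted p under 0.05, all higher in the upper horn. Over all tested transcripts that share was 4.09%. Without the 2 libraries rich in 18S RNA, 1 member had p under 0.05. With all libraries the 4 were the metal-binding protein MT2A (0.79 ± 0.38) and the enzymes MSRB1 (0.71 ± 0.23), PRDX5 (0.54 ± 0.23) and SOD1 (0.46 ± 0.21). Of 25 tested interferon-stimulated genes and 19 complement and antimicrobial genes, 0 were called by edgeR or DESeq2 and 0 had an unadjusted p under 0.05, with medians of -0.20 and 0.09. Over all 32 lists, 699 genes were tested and edgeR called 3, HOXD13, HOXA13 and PENK, and the list median lay within 0.5 of 0 in 30 lists. DESeq2's Wald test on all features also called members of the smooth muscle, WNT, BMP, matrix remodelling and ion transport lists. It called 365 transcripts there and 12 on the transcripts kept by edgeR's filter.

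The side of ovulation was compared within the upper horn. Between the ipsilateral and the contralateral upper horn, 1 of 17241 transcripts was called, 0.0058%. The ipsilateral minus contralateral log2 fold change was 1.18 for HOXD13, 0.05 for HOXA13, 0.48 for LOC101907241 and 0.30 for PENK, all with an adjusted p above 0.85 by edgeR's test. Against the body, the ipsilateral side alone gave -6.51 for HOXD13 and the contralateral side alone -7.69, and HOXA13 gave -3.56 and -3.61 on the same sides, with the body libraries shared. LOC782977, a lncRNA between STPG2 and LOC530285 in ARS-UCD2.0, ran from 0.327 to 9.39 CPM in the upper horn and from 0.146 to 0.254 CPM in the body without overlap, at 2.97 ± 0.65 (adjusted p = 0.192, edgeR). It was called on the ipsilateral side alone, at 4.13 (adjusted p = 0.0299, edgeR), while the difference between the sides, 2.33, was not called (adjusted p = 0.528, edgeR).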

How the data were processed

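The deposited table holds whole-number read counts that the authors did not normalise, for 38568 features of 34 libraries. Most features are single RefSeq transcripts. Per the labels' protocols, total RNA from bead-homogenised tissue was made into directional libraries. Per the submitters' processing notes the tools were Cutadapt, STAR 2.7.9a, SAMtools and HTSeq. Genome build, annotation and counting settings were not given in the sources used here. Overlapping and antisense genes are therefore uncertain. Names came from a RefSeq gene table of ARS-UCD2.0, which matched 26362 features to 21554 genes with 95.3% of counts. In lists, a gene was represented by its feature with the most counts.

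Tests used edgeR 4.0.16 in R 4.3.3 on the counts as deposited: TMM scaling, filterByExpr, robust dispersions and the quasi-likelihood F test, fitted to all 34 libraries with group and heifer as terms. The upper horn was the mean of its sides, each with weight 0.5. Benjamini-Hochberg adjustment ran over 17241 transcripts, and an adjusted p under 0.05 made a call. CPM used TMM-scaled library sizes; means ± SD are over heifers after averaging sides. Heifer differences used log2 CPM with a prior count of 2. Intervals of the fit are at 95%.

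The heifer term, a replicate block, rests on the labels, which tie the sites to the same animal. Deviations from group means correlated with a median of 0.207 within heifers (13 library pairs) and -0.08 between heifers (52 pairs). No pair of libraries of 1 group agreed within sampling noise: over transcripts with 20 or more counts, the lowest chi-square per transcript was 73.0.

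The groups, the gene lists and the transcripts described were chosen with earlier results of these data known. By rule, the text names called transcripts with an official symbol, a mean of at least 1 CPM in the higher site and the same sign in 5 of 5 heifers, and a fixed set of HOX, receptor and gland genes. The next 20 by p (of which 1 is not reported here), the LOC transcripts, transcripts without overlap and other list members were chosen after their values were seen. Alternatives were DESeq2 1.42.0, other filters, other sets of libraries, a fit without the block, sums per heifer, and leaving out each heifer.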

Additional observations from a re-analysis of the deposited data

Results flagged for a closer look

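Single heifers stood apart from the other 4 of their site in 13 of the 144 groups of 5 heifers examined, where the gap to the nearest heifer took more than 0.71 of the group's range. Chance would flag about 1 in 20 such groups if the groups were independent and their values normally distributed. The values were CPM, their distribution was not tested, and several flags fell in 1 library, the body of heifer 10872. No excess can therefore be read from the count. In the upper horn the flagged values were PENK in heifer 11070, at 257.5 CPM, and ROR2 in heifer 11033, at 53.9 CPM. The upper horn of heifer 11110 was flagged for JAG1, at 230.1 CPM, and FLT1, at 102.3 CPM. In the body of heifer 10872, OXTR stood at 281.7 CPM, GRP at 12400 CPM, SOD1 at 348.6 CPM, MSRB1 at 95.8 CPM and MT2A at 46.5 CPM, all above the other bodies, and GPC3 stood at 0.310 CPM and DKK2 at 0.620 CPM, both below them. HOXA13 stood at 21.4 CPM in the body of heifer 10882, and FZD2 at 91.6 CPM in the same library.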

How the results depend on the processing

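HOXD13 was called in every one of the 20 alternatives, with log2 fold changes from -8.11 to -6.51, the lowest of them without the 2 libraries rich in 18S RNA. HOXA13 ran from -4.15 to -3.17 and missed the threshold in sums per heifer (adjusted p = 0.0967, edgeR) and without the 3 libraries high in smooth muscle transcripts (adjusted p = 0.0802, edgeR). LOC101907241 ran from -2.79 to -2.32 and missed the threshold without heifer 10882 (adjusted p = 0.204, edgeR), without heifer 11070 (adjusted p = 0.0759, edgeR), on the ipsilateral side alone (adjusted p = 0.182, edgeR) and without the 3 libraries high in smooth muscle transcripts (adjusted p = 0.131, edgeR). PENK ran from 1.54 to 2.48, with adjusted p from 9.16e-08 to 0.619 over the alternatives, edgeR and DESeq2 included. The cause of these changes was not tested.

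The counts reported were 1 transcript higher and 3 lower. No transcript was called higher with DESeq2 size factors, a mean of at least 1 CPM, the 14 upper horn and body libraries alone, the contralateral side alone, or without the 2 libraries rich in 18S RNA, with 3 lower in each. Without the replicate block, 0 were called higher and 3 lower, so that the paired and unpaired fits shared HOXD13, HOXA13 and LOC101907241 but not PENK. Leaving out each heifer gave 0 higher and 2 to 4 lower. Sums per heifer gave 1 higher, LOC112444517, and 2 lower. The 24 uterine libraries gave 2 higher and 5 lower. With no low-count filter, 60 were higher and 90 lower. DESeq2's Wald test on all 38568 features called 133 higher and 232 lower, of which 320 had been removed by edgeR's filter and 319 had absolute log2 values above 10. The following fits were chosen after seeing the data. On the transcripts kept by that filter DESeq2 called 7 higher and 5 lower. Leaving out the 3 libraries high in smooth muscle transcripts gave 0 higher and 1 lower.

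Uncalled values changed sign as follows. HOXA9 was -0.056 on the ipsilateral side and -0.028 without the contralateral upper horn of heifer 11033. HOXA11 was 0.032 in sums per heifer with the replicate block and 0.10 on the ipsilateral side, and ran from -0.32 to 0.19 when each heifer was left out. PGR was -0.058 with DESeq2 size factors and in both DESeq2 tests and -0.45 on the contralateral side, and ran from -0.23 to 0.32 over the left-out heifers. Without the 3 libraries high in smooth muscle transcripts DES was -0.0095, ACTG2 -0.33, CCL11 -1.20 and KCNMB1 -1.02. The median SE of 0.43 on the log2 scale came from the fit to 34 libraries of 5 heifers. In that fit the 2 upper horn sides of a heifer were separate libraries that shared the heifer term. Sums per heifer gave 470 transcripts with an unadjusted p under 0.05 by edgeR's test, in place of 1927. In those sums PENK was not called (adjusted p = 0.404, edgeR).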
